A study of Caenorhabditis elegans with 2 samples.

Results

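Transfer RNA (tRNA) genes on the 5 autosomes of *C. elegans* were examined for regions recovered with AHR-1, the worm member of the aryl hydrocarbon receptor family. The 336 members were defined by annotation, as every gene of biotype tRNA on chromosomes I to V in the Ensembl annotation of WBcel235 (ce11). This set was chosen with earlier results of these data known. The nuclear chromosomes carry 612 tRNA genes in all, and the other 276 lie on X. Each gene was extended by 250 bp on both sides, and the strongest region with its summit inside was taken from each list of regions. Genes with no region were kept in every count.

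The regions come from chromatin immunoprecipitation sequencing (ChIP-seq) in a single group of worms with 2 biological replicates and no second condition. The strain, OP562 (unc-119(tm4063) III; wgIs562), carries a transgene that encodes AHR-1 fused at its C terminus to GFP and FLAG, and an anti-GFP antibody was used. Both replicates were whole hermaphrodite late embryos, taken 3.5 h after egg bleaching, so signal from the various cell types is mixed. The lists hold 22949 regions for replicate 1, 23313 for replicate 2 and 13858 for the pooled replicates. After the irreproducible discovery rate step (IDR), which is based on agreement of ranks between replicates, 479 regions remain. Single regions among them can still rank far apart in the 2 replicates. The IDR list holds the top 479 pooled regions, and the depositors describe the pooled list as peaks and background, so it includes weak regions. The sources used here do not state the read depth, no control library was analysed, and signal values are the authors' own, on a separate scale in each list.

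As background, tRNA genes are transcribed by RNA polymerase III from promoters inside the gene. The factor TFIIIC binds 2 internal elements, the A box and the B box, and places TFIIIB just upstream of the gene, while a run of T on the coding strand ends transcription. Polymerase III genes are small, repeated and strongly transcribed. AHR proteins bind DNA with the partner ARNT (AHA-1 in worms) at response elements with the core GCGTG.

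The annotation label held up against sequence. The members were 68 to 122 bp long (median 72), 17 of them had an annotated intron, and 241 (71.7%) held the B box letters GTTCGANNC (N is any base) on the gene strand, against 72.5% of tRNA genes on X. A run of at least 4 T began or lay within 15 bp after the gene in 328 members (97.6%). All 336 matched a RefSeq gene by WormBase identifier, 334 had an amino acid there, and an anticodon that reads that amino acid was found in a stem-loop of 323. Many members are copies of each other, with 137 distinct sequences among the 336 genes, and 223 members have an identical copy on X. The 2 gene sequences shown here belong to members of high pooled signal on chromosomes V and IV, with B box letters in capitals (WBcel235, gene strand, 5′ to 3′). The first is a tRNA-Ile gene with an intron at chrV:12002176-12002260 (plus strand), and the second a tRNA-Arg gene at chrIV:143982-144054 (plus strand).
F57F5.t1: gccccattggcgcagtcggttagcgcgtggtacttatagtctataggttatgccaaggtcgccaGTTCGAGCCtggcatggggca
F29C4.t1: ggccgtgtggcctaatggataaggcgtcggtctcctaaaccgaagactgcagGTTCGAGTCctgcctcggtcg

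Stretches upstream of 5 of the 10 strongest members are shown as examples that carry a GA repeat, described further on. They were picked for it: the strongest member, C37A2.t1, has no such repeat within 100 bp upstream, nor have ZC455.t1, F35H8.t1 and C04A2.t1, also among the 10, while F56F3.t1 has one and is not shown. Each is the 100 bp that ends at the base before the gene, on the gene strand, with GAGAGA or its reverse complement TCTCTC in capitals. They lie at chrII:12494641-12494740 (plus), chrV:12002076-12002175 (plus), chrIII:8678569-8678668 (minus), chrIV:143882-143981 (plus) and chrII:5032671-5032770 (plus).
T21B4.t1: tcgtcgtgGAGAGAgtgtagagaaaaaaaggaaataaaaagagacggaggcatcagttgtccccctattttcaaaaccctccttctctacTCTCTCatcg
F57F5.t1: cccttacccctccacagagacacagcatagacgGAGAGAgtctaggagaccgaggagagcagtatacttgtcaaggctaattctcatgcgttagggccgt
sup-5: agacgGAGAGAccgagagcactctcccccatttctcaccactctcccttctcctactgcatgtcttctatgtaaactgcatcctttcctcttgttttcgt
F29C4.t1: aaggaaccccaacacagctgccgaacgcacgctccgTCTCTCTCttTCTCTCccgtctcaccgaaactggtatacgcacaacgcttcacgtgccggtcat
F33G12.t1: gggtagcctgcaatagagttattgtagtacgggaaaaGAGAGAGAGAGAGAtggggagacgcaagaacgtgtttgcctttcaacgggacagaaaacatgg

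Of the 336 autosomal tRNA genes, 43 had a summit of the IDR list, or 12.8% (95% Wilson interval 9.64 to 16.8%). The share was 1.33% of all 40868 genes of the autosomes extended in the same way, and 0.264% of windows of 572 bp that tile the autosomes. The genes of this background are of all lengths and biotypes, and the share was not split by biotype. In the pooled list 180 members had a summit (53.6%, interval 48.2 to 58.8%), against 19% of all genes and 7.64% of the windows. Replicate 1 gave a region at 177 members (52.7%) and replicate 2 at 186 (55.4%). For all genes these shares were 27.2% and 28.3%, and for windows 12.3% and 12.6%. No list had a region at the remaining 110 members. The intervals cover counting error only, and genes are not replicates.

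The members' pooled regions were spread widely in strength. Their pooled signal ran from 26.8 to 184 with a median of 49.7, against a median of 32.8 over the whole pooled list. Of the 180 members with a pooled region, 98 were within the strongest 1385 of the 13858 regions and 150 within the strongest 6929. The best rank was 59 and the worst 13673, so none was among the very strongest regions of the data set. The 43 members with an IDR summit had signals from 69.5 to 184 (median 92.3) and −log10 q values of 1.94 to 2.87, and every one of their regions was 444 bp wide. Since 3 regions each covered 2 genes, the 43 members rest on 40 regions.

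Just inside the IDR list lay C15C6.t1 (tRNA-Arg, pooled signal 71.7, rank 453), F52C9.t1 (tRNA-Thr, 71.0, rank 461) and C38C6.t1 (tRNA-Leu, 69.5, rank 476). Just outside it were Y7A9D.t3 (tRNA-Val, 69.0, rank 482), C44B7.t1 (tRNA-Glu, 67.2, rank 513) and M57.t1 (tRNA-Arg, 67.1, rank 514). The values on either side of the limit thus differed little.

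The strongest member was C37A2.t1, a tRNA-Cys gene in an intron of the cyclin E gene cye-1 on chromosome I (6781803 to 6781874, plus strand). Its signal was 184 in the pooled list, 113 in replicate 1 and 69.2 in replicate 2, at ranks 59, 53 and 77. T21B4.t1, a tRNA-Ile gene on chromosome II (12494741 to 12494814, plus strand), lay in an intron of the collagen gene col-85 on the opposite strand. Its pooled signal was 165, with ranks of 56 and 119 in replicates 1 and 2. F57F5.t1 on chromosome V (12002176 to 12002260) lay between genes, 379 bp upstream of the guanylyl cyclase gene gcy-33. Its pooled signal was 163 and its ranks were 82 and 91.

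The next was sup-5 on chromosome III (8678497 to 8678568, minus strand), a tRNA-Trp gene known from mutations that suppress amber stop codons. It lay in an intron of fli-1, the flightless gene, with a pooled signal of 157 and ranks of 87 in replicate 1 and 92 in replicate 2. Among other tRNA-Trp genes known as suppressor loci, named here after their values were seen, sup-24 had a pooled signal of 39.2 and sup-29 one of 28.6, neither in the IDR list. F29C4.t1 on chromosome IV (143982 to 144054, plus strand), a tRNA-Arg gene in an intron of the collagen gene col-99 on the other strand, had a pooled signal of 150, with ranks of 108 and 76. These first 5 members were among the strongest 119 regions of both replicates.

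After these came F33G12.t1 (tRNA-Ile, chromosome II, pooled signal 135), ZC455.t1 (tRNA-Ser, chromosome V, 120.0), F35H8.t1 (tRNA-Arg, chromosome II, 117), C04A2.t1 (tRNA-Leu, chromosome II, 117) and F56F3.t1 (tRNA-Arg, chromosome III, 112). ZC455.t1, C04A2.t1 and F33G12.t1 lay in introns, whereas F35H8.t1 and F56F3.t1 lay outside coding genes. The nearest coding 5′ end was 6212 bp from F35H8.t1, at F35H8.4, and 1774 bp from F56F3.t1, at mstr-2. The second strongest member of chromosome IV was B0350.t1 (tRNA-Lys, 97.2), and that of chromosome I was F56F4.t2 (tRNA-Lys, 85.1), in an intron of the peptide transporter gene pept-3.

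All 20 standard amino acids had at least 1 autosomal gene with an IDR summit, where a region shared by 2 genes counts for both. The numbers were 5 of 17 tRNA-Arg genes, 4 of 22 tRNA-Leu, 4 of 21 tRNA-Ser, 3 of 12 tRNA-Met and 3 of 16 tRNA-Ile. For tRNA-Ala they were 3 of 21, for tRNA-Glu 3 of 18, for tRNA-Lys 3 of 28 and for tRNA-Thr 3 of 20, with 2 of 15 for tRNA-Asp. Each of the other 10 amino acids had 1 such gene, among which glycine has 35 autosomal genes and proline 22. All 3 tRNA-Arg genes with the anticodon TCG had one, against 0 of the 6 with ACG. The only tRNA-Pro gene counted, T23F1.t2, shared its region with T23F1.t1 (tRNA-Lys). Likewise Y22D7AL.t3 (tRNA-Met) and Y22D7AL.t4 (tRNA-Glu) shared a region, as did F42A10.t1 and F42A10.t2 (both tRNA-Ser). Such genes cannot be told apart. These counts are small, and the amino acids were not tested against each other.

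Shares in the pooled list also differed between amino acids. tRNA-Glu genes had a pooled summit at 16 of 18 members and tRNA-Cys at 5 of 6, against 4 of 14 for tRNA-Asn, 7 of 22 for tRNA-Pro and 13 of 35 for tRNA-Gly. Besides the genes named so far, the strongest of their amino acid were T15B12.t1 (tRNA-Met, pooled signal 111), ZK622.t1 (tRNA-Ala, 104), Y22D7AL.t4 (tRNA-Glu, 102), W09G10.t1 (tRNA-His, 94.0) and Y82E9BR.t1 (tRNA-Gly, 92.8). W02G9.t2 (tRNA-Thr, 89.4), T23F1.t2 (tRNA-Pro, 89.1), T22F7.t1 (tRNA-Tyr, 86.6), Y39B6A.t9 (tRNA-Phe, 81.9) and C05G6.t1 (tRNA-Val, 79.7) followed. Lowest of these leading genes were ZK507.t1 (tRNA-Asn, 75.4), F28F8.t3 (tRNA-Asp, 75.3) and T03E6.t1 (tRNA-Gln, 74.6). Y22D7AL.t4 and T23F1.t2 shared their regions with Y22D7AL.t3 and T23F1.t1. The single selenocysteine tRNA gene, K11H12.t1 on chromosome IV, reads UGA codons in selenoprotein mRNA. It had a pooled region of signal 46.4 (rank 1591) and ranks of 4085 and 1223 in the replicates.

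A region was present in both replicate lists at 137 members, in replicate 1 alone at 40, in replicate 2 alone at 49 and in neither at 110. Every pooled region of a member had a partner in at least 1 replicate, with 134 in both and 46 in 1 of them. Over the 137 genes with both, the ranks in the 2 lists had a Spearman rho of 0.475, given as a description, since these genes share libraries and in part sequence. The IDR step is based on agreement between replicates and its list is the top of the pooled list, so the next counts only describe its members. All 43 had a region in both replicates, and 27 of them were within the strongest 479 of each. No other member was within the strongest 479 of both.

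Some IDR members were much stronger in one replicate. F52C9.t1 (tRNA-Thr) ranked 8200 in replicate 1, with a signal of 21.7, but 207 in replicate 2, with a signal of 45.3. C43G2.t1 (tRNA-Leu) ranked 234 and 1998, C38C6.t1 (tRNA-Leu) 2264 and 273, and Y104H12A.t1 (tRNA-Glu) 214 and 1591. tRNA-Pro genes, picked out after their values were seen, had a region at 3 members in replicate 1 and at 13 in replicate 2. Of those 13, 4 rested on regions with replicate 2 ranks of 21005 or 21487, and 1, T23F1.t2, was within the strongest 479.

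**Figure D1:**
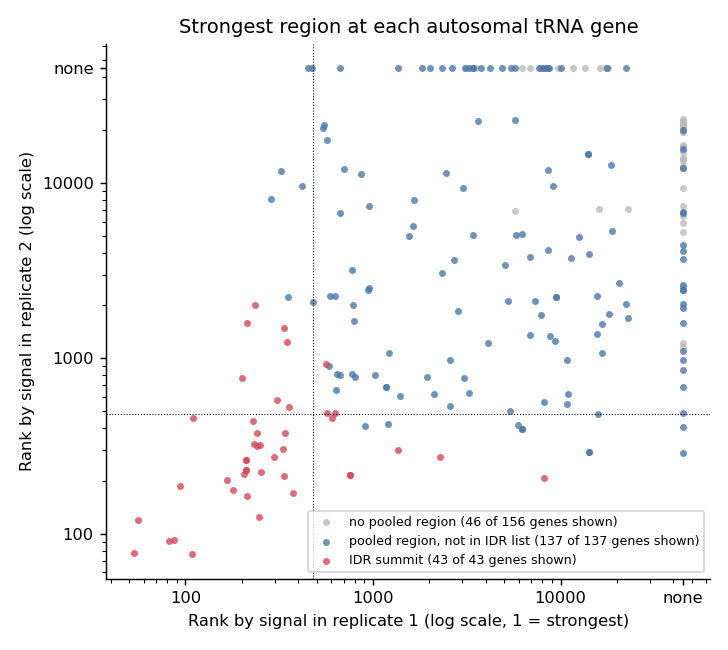
Rank by signal of the strongest region at each autosomal tRNA gene in replicate 1 (x axis, log scale) and replicate 2 (y axis, log scale), with genes lacking a region in one replicate at the mark "none" and dotted lines at rank 479. The 43 genes with an IDR summit (red) gather at the lower left, and the 110 genes with no region in any list are not drawn.

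Summits lay inside, upstream of and downstream of the genes. The search window is symmetric about each gene, so a median close to the gene follows in part from the window. Along the gene strand the pooled summits lay at a median of 19 bp downstream of the 5′ end (quartiles -21.8 and 70.0 bp), or -17 bp from the middle. Of the 180, 65 were upstream of the gene, 72 inside it and 43 downstream. The medians from the 5′ end were 29 bp in replicate 1 and 22.5 bp in replicate 2. For genes on the plus and the minus strand the pooled medians were 14.5 and 23 bp, both downstream along the gene.

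At the 43 members with an IDR summit the pooled summit was a median of 6 bp from the 5′ end (quartiles -5.5 and 33.5 bp), with 15 upstream, 21 inside and 7 downstream. Relative to the middle of the gene this median was -32.5 bp. It was also -32.5 bp in replicate 1, and -16 bp in replicate 2. On X the 64 tRNA genes with an IDR summit had a median of 29 bp from the 5′ end, or -8 bp from the middle; the difference from the autosomes was not tested. Summits of the same gene in the 2 replicates were a median of 50 bp apart (quartiles 25 and 115 bp), and 31 bp apart at IDR members, so offsets of this size are near the precision of a single summit.

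**Figure D2:**
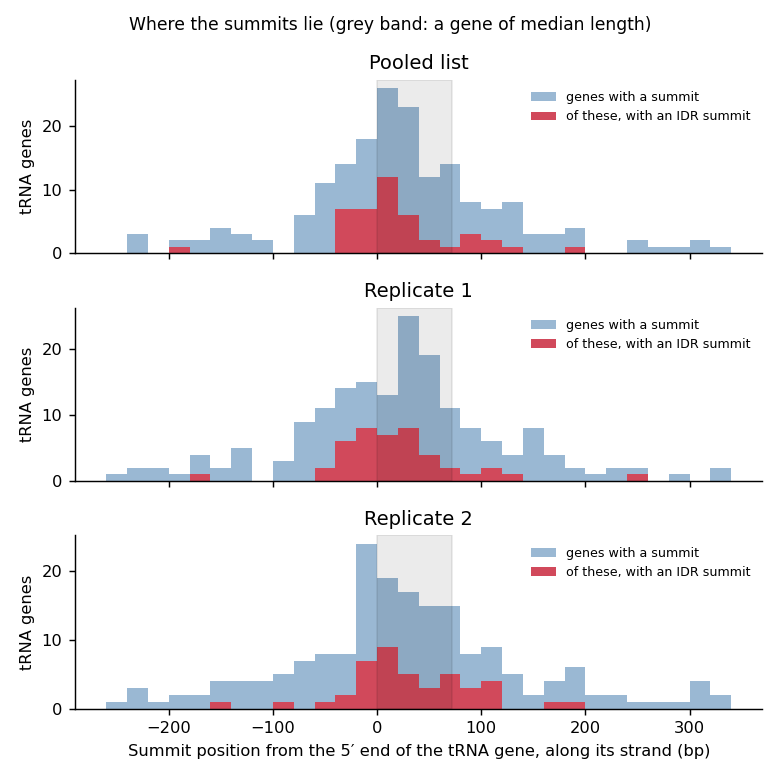
Histograms of summit position (x axis, bp from the 5′ end of the tRNA gene along its strand) over autosomal tRNA genes (y axis, number of genes), for the pooled list and each replicate, with genes that have an IDR summit in red. Most summits fall within 100 bp of the 5′ end, and the medians are 19, 29 and 22.5 bp.

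Among the autosomes, chromosome III had the highest share of tRNA genes with an IDR summit and chromosome I the lowest. Chromosome III had them at 16 of 64 genes (25%, Wilson interval 16.01 to 36.8%). The shares were 6.06% (4 of 66) on I, 12.3% (7 of 57) on II, 8.45% (6 of 71) on IV and 12.8% (10 of 78) on V. Chromosome III also had the highest share of tiled windows with an IDR summit, at 0.394%, against 0.180% to 0.315% on the other autosomes. The windows at tRNA genes are part of these shares. The autosomes were not tested against each other.

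On X, 64 of 276 tRNA genes had an IDR summit (23.2%). Of all 572 bp windows on X 0.303% had an IDR summit and 7.08% a pooled summit, against 0.264% and 7.64% on the autosomes. These windows include those at tRNA genes, and X had 95 IDR regions in all. They are therefore not a background free of tRNA genes, and windows away from tRNA genes were not counted apart. For the test, genes whose extended windows overlap were merged into loci, which gave 305 loci on the autosomes and 211 on X. Of these, 40 (13.1%, interval 9.78 to 17.4%) and 56 (26.5%, interval 21.0 to 32.9%) had an IDR summit, which put the log2 odds ratio at -1.26 ± 0.33 (SE; adjusted p = 0.000989 by Fisher's exact test, two-sided, Benjamini-Hochberg over 7 comparisons). The strongest 479 regions of replicate 1 alone gave -1.19 ± 0.34 and those of replicate 2 alone -1.28 ± 0.34. A difference was not detected for the pooled list, with 169 of 305 loci (55.4%) against 118 of 211 (55.9%) and a log2 odds ratio of -0.030 ± 0.26 (adjusted p = 1, Fisher's exact test). Median pooled signal was 49.7 at the 180 autosomal genes and 65.8 at the 138 genes on X that had a region. Loci are not replicates and identical genes can share reads, so these p-values do not measure variation between cultures.

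**Figure D3:**
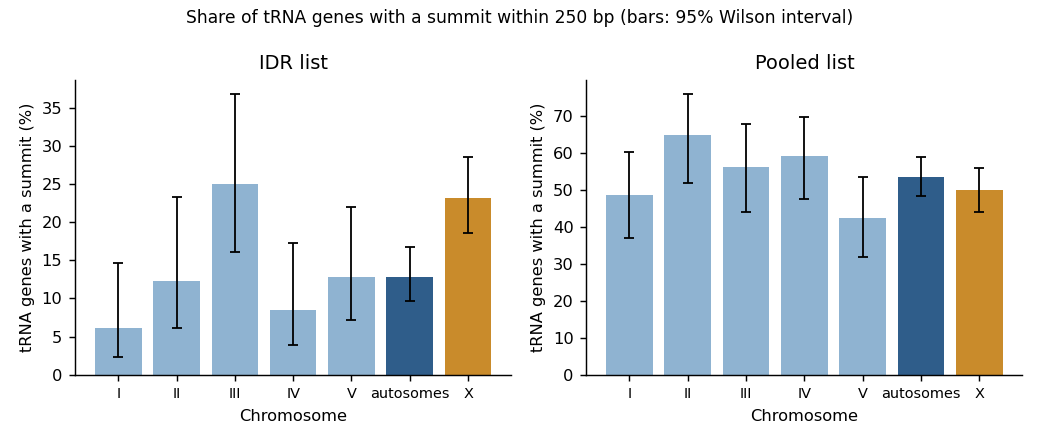
Share of tRNA genes with a summit within 250 bp (y axis, %) on each autosome, on all autosomes and on X, in the IDR list (left) and the pooled list (right), with 95% Wilson intervals. In the IDR list X stands at 23.2% and the autosomes at 12.8%, with chromosome III at 25%, while in the pooled list they stand at 50% and 53.6%.

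A difference in the share of IDR summits by the coding surroundings of a tRNA gene was not detected. Inside coding genes lay 194 of the 336 members, 188 of them wholly in introns, with 116 on the strand of the host gene and 78 on the other. An IDR summit was at 24 of the 194 (12.4%) and at 19 of the 142 outside coding genes (13.4%). Over loci the log2 odds ratio was 0.11 ± 0.50 (adjusted p = 1, Fisher's exact test). A coding 5′ end lay within 500 bp of 97 members, of which 14 had an IDR summit (14.4%), against 29 of the 239 farther away (12.1%), with a log2 odds ratio over loci of 0.21 ± 0.52 (adjusted p = 1, Fisher's exact test). Standard errors of about 0.5 leave room for a 2-fold difference in the odds.

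The median distance to the closest coding 5′ end was 1024 bp for the 43 IDR members and 1213 bp for those with no pooled region, and the difference was not tested. By place along the chromosome, 28 of the 170 members in the central 0.5 of its length had an IDR summit (16.5%, interval 11.6 to 22.8%). Of the 166 nearer the ends 15 did (9.04%, interval 5.55 to 14.4%). The pooled shares were 52.4% and 54.8%. The same shares over all genes or tiled windows of these chromosome parts were not counted, and the difference was not tested. It can therefore not be ascribed to tRNA genes.

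With the extension of 250 bp on both sides, members lay singly or in pairs. No locus held more than 2 genes, and 31 held 2, in 24 of them for the same amino acid. An IDR summit was at 4 of these 31 loci and at 36 of the 274 with 1 gene, a log2 odds ratio of -0.030 ± 0.81 (adjusted p = 1, Fisher's exact test). At 11 pairs both genes had a pooled summit, and at 10 of these it was the same region, so the genes cannot be told apart. No pooled summit was found at 17 pairs. The strongest pairs were Y22D7AL.t3 and Y22D7AL.t4 (tRNA-Met and tRNA-Glu, signal 102), K11H3.t1 and K11H3.t2 (both tRNA-Ser, 99.4 at K11H3.t2 only), and T23F1.t1 and T23F1.t2 (tRNA-Lys and tRNA-Pro, 89.1). F42A10.t1 and F42A10.t2 (both tRNA-Ser) shared a region of signal 83.7, and F49D11.t1 and F49D11.t2 (both tRNA-Gly) one of 60.3.

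The response element core was present at many members, mostly within the gene itself. GCGTG was found on either strand inside 97 of the 336 genes (28.9%) and in the 100 bp flanks of 51 (15.2%). It lay upstream in 38 (11.3%) and downstream in 15 (4.46%), against 5.14% of the 100 bp windows that tile the autosomes. Among the 43 IDR members, 15 held it in the gene, 9 in a flank and 21 in neither. With GCGTG in a flank 17.6% of members had an IDR summit, and without it 11.9%, with a log2 odds ratio over loci of 0.62 ± 0.60 (adjusted p = 1, Fisher's exact test). The pooled shares were further apart. A pooled summit was at 34 of 51 members with GCGTG in a flank (66.7%) and at 146 of 285 without (51.2%). With it in the gene or a flank the pooled share was 62.7% (84 of 134), and with it in neither 47.5% (96 of 202). These pooled differences were not tested. The letters inside the gene belong to the transcribed sequence, such as gcgtgg in F57F5.t1 above.

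A GA repeat was also counted in the flanks. GAGAGA, or TCTCTC on the gene strand, was present within 100 bp upstream of 56 members (16.7%) and within 100 bp downstream of 13 (3.87%), against 5.19% of the tiling 100 bp windows. With it upstream, 19 of 56 members had an IDR summit (33.9%, interval 22.9 to 47.0%) and 43 of 56 a pooled summit (76.8%). Of the 280 members without it upstream, 24 had an IDR summit (8.57%) and 137 a pooled summit (48.9%). An occurrence of GCGTG can share its end base with one of the repeat. Both motifs were in the flanks of 16 members, 6 of them with an IDR summit. The repeat was examined because earlier results of these data had it frequent at peaks near tRNA genes, so its shares describe these genes, no p is given, and they are not compared with those for GCGTG.

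The GA repeat was short and its strand varied. As TCTCTC on the gene strand it was found at 43 members, a median of 46 bp upstream of the gene (quartiles 33.5 and 65 bp), and as GAGAGA at 15, a median of 58 bp upstream. The bases covered, summed over separate runs at a gene, were 6 to 18 in the first orientation and 6 to 14 in the second, with a median of 6 in both. F33G12.t1 and F11H8.t1 carried long runs of 14 and 16 bases. With the repeat upstream the share with an IDR summit was 56.3% of 16 members on chromosome III, 33.3% of 15 on V, 30% of 10 on II and 18.2% of 11 on IV, while on I 0 of 4 had one. Without it the shares were 14.6%, 7.94%, 8.51%, 6.67% and 6.45%. On X it was at 53 of 276 tRNA genes, with an IDR summit at 60.4% of these and at 14.3% of the others.

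Composition moved with the regions too. Flanks of the 43 IDR members had a median GC content of 41.5%, and those of members with no pooled region 36%. Members with the repeat upstream had a median of 40% and those without 38%. Whether composition plays a part in the shares was not tested.

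**Figure D4:**
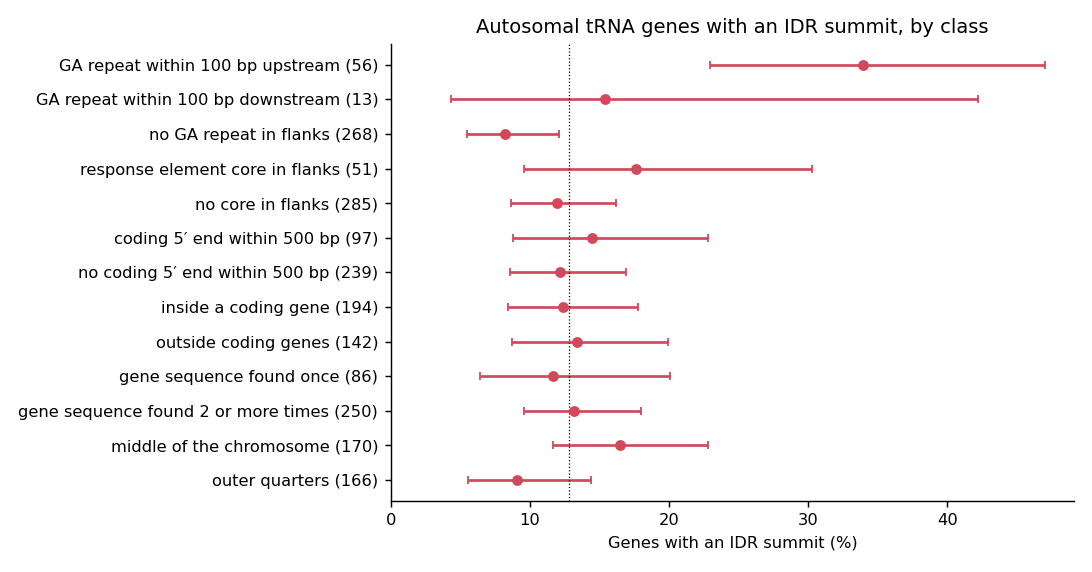
Share of autosomal tRNA genes with an IDR summit (x axis, %) in classes defined by sequence and position (y axis, number of genes in brackets), with 95% Wilson intervals and a dotted line at the 12.8% of all members. The intervals of the classes by coding neighbours and copy number include that line. The share is 33.9% (22.9 to 47.0%) with the GA repeat upstream and 8.21% (5.48 to 12.1%) with no repeat in the flanks. The repeat was taken up after seeing the data, so its classes are descriptive and are not compared with those for GCGTG.

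Copies of identical sequence differed widely in signal. Of the 43 families with at least 2 identical autosomal copies (242 genes), 35 had a pooled summit at some copies but not at others, 3 at every copy and 5 at none. For IDR summits 23 families were mixed, 19 had none, and 1 had them at each copy, the tRNA-Arg genes with the anticodon TCG. Members that share their sequence with no other annotated tRNA gene had an IDR summit in 10 of 86 cases (11.6%), and those with copies in 33 of 250 (13.2%), with a log2 odds ratio over loci of -0.27 ± 0.56 (adjusted p = 1, Fisher's exact test). The treatment of reads that map to several copies is not stated in what was available, so reads of identical copies may be shared or lost.

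The largest family, 18 autosomal copies of a tRNA-Gly gene with the anticodon TCC, had 7 pooled summits and 1 IDR summit, at Y82E9BR.t1. A tRNA-Lys family (anticodon CTT, 15 copies) had 11 and 2, and a tRNA-Asn family (13 copies) had 4 and 1. The tRNA-Ile family with the anticodon AAT ranged from a signal of 27.8 to 165, the latter at T21B4.t1, over 7 of 9 copies with a pooled region. The tRNA-Val family (8 copies) had 3 pooled summits and no IDR summit. In the 11 families with at least 8 copies, 18 of 19 genes with the GA repeat upstream had a pooled summit and 8 an IDR summit. Without the repeat 49 of 99 had a pooled summit and 5 an IDR summit. These sums do not hold in every family. In the tRNA-Lys family with the anticodon CTT, 0 of 2 copies with the repeat had an IDR summit, against 2 of 13 without. In the tRNA-Asp family of 11 copies, 1 of 2 with the repeat had a pooled summit, against 6 of 9 without.

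**Figure D5:**
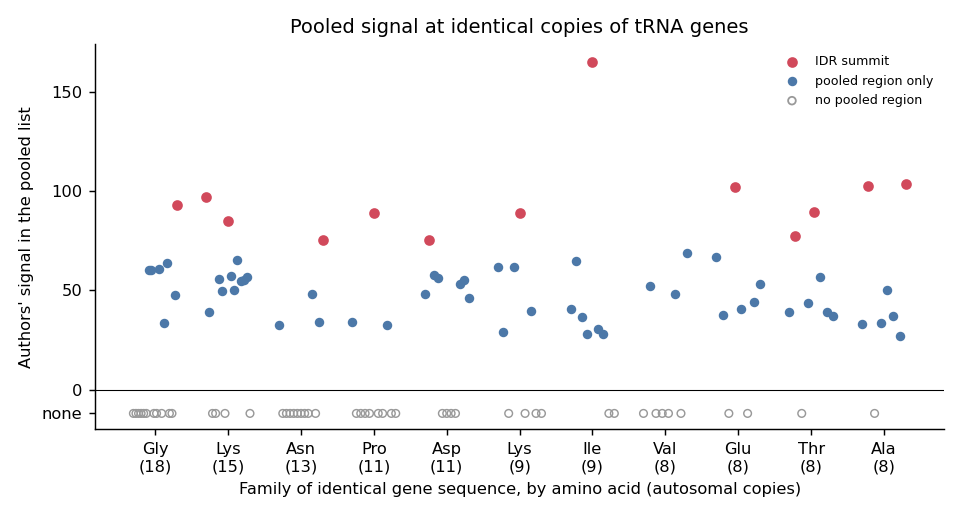
Pooled signal (y axis, the authors' signal) at each copy of the 11 families with 8 or more identical autosomal tRNA genes (x axis, amino acid with the number of copies), with open circles below the axis for copies that had no pooled region. Within a family most copies sit below 70 or have no region. The copies with an IDR summit (red, at most 2 in a family) reach up to 165 in the tRNA-Ile family. They stand above the others by construction, since the IDR list is the top of the pooled list.

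The tRNA-Pro family with the anticodon TGG shows how far identical genes differed, and is set out because its gene and flanks can be read side by side. The sequence shared by its 11 autosomal copies is given from T23F1.t2 at chrV:15465225-15465296 (minus strand). It has no exact GTTCGANNC.
T23F1.t2 gene: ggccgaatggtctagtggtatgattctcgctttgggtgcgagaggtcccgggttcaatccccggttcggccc

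Of the 11 copies, T23F1.t2 on chromosome V had a pooled signal of 89.1 with ranks of 209 and 229 in the replicates, through a region shared with T23F1.t1. F02H6.t1 on chromosome IV had a pooled signal of 34.0 and a region in replicate 2 alone (rank 1581). Y71H2AM.t1 on chromosome III had a pooled signal of 32.5 and likewise a region in replicate 2 alone (rank 6824). The other 8 copies had no pooled region, although 4 of them had a region in replicate 2, W09D6.t1 and W09D6.t2 at rank 2556. The 3 copies with a pooled region were the ones with the GA repeat within 100 bp upstream, a match picked out after seeing the data. R11G10.t1 on chromosome V, in the gene of the glutamate-gated chloride channel subunit avr-15, is 1 of the 8 and had no region in any list. The 100 bp upstream of these 4 copies lie at chrV:15465297-15465396 (minus), chrIV:14225002-14225101 (plus), chrIII:2711611-2711710 (plus) and chrV:13509593-13509692 (plus), with the repeat in capitals.
T23F1.t2: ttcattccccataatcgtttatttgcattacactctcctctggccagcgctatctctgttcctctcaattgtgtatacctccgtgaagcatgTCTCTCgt
F02H6.t1: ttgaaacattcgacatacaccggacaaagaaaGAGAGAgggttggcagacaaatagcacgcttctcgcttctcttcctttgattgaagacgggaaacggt
Y71H2AM.t1: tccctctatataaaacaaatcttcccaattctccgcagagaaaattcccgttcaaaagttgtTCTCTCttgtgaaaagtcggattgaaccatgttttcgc
R11G10.t1: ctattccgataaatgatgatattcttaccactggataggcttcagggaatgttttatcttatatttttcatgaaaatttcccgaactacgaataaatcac

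In the tRNA-Thr family with the anticodon AGT, 7 of 8 copies had a pooled summit and 2 an IDR summit, with only 1 of those near the repeat. F11H8.t1 (pooled signal 77.5, ranks of 1367 and 298) carried the longest run of it among the members shown, while W02G9.t2 (signal 89.4, ranks of 242 and 376) had none within 100 bp upstream. Their gene sequence is the same, given from F11H8.t1 at chrIII:7030557-7030628 (minus strand) with the B box letters in capitals. The upstream stretches lie at chrIII:7030629-7030728 (minus) and chrV:2673910-2674009 (plus).
F11H8.t1 gene: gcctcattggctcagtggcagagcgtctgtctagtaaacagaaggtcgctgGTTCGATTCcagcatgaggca
F11H8.t1 upstream: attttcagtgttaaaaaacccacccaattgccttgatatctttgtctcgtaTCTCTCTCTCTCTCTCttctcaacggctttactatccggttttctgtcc
W02G9.t2 upstream: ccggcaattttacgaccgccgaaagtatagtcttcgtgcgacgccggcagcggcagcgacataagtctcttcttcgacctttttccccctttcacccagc

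The tRNA-Ala family with the anticodon AGC was alike in its counts, with 7 of 8 copies in the pooled list and 2 in the IDR list. ZK622.t1 on chromosome II (signal 104) had no GA repeat upstream and F15B9.t1 on chromosome V (signal 103) had one. The remaining 5 copies with a pooled region had signals of 26.8 to 49.98. The repeat was thus neither present at every IDR member nor followed by an IDR summit at every member that had it.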

How the data were processed

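Peak lists of 2 biological replicates, of both pooled, and of the IDR step were used on build ce11, per the deposited file descriptions. Each list derives from the alignments and 1 further file, per those descriptions; the sources used here do not name the caller, aligner, IDR cutoff or depth. The authors deposited a signal value, a −log10 q value and a summit for each region; signal was used only to rank or describe regions within a list. Lists on ce10 were not used, since the annotation is of WBcel235 (ce11).

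Genes came from Ensembl release 115, and names, amino acids and sequence from RefSeq WBcel235. The strongest region with its summit within 250 bp of a gene was taken. Genes with overlapping windows were merged into loci for Fisher's exact test (two-sided, Benjamini-Hochberg over 7 comparisons, threshold 0.05). Copies share their whole sequence. An anticodon was read from a stem with at least 4 of 5 pairs and a loop of 7 bases. Motifs were counted on both strands. Wilson intervals are at 95%. The tools were Python 3.11.15, pandas 2.3.3, scipy 1.17.1, numpy 2.4.6 and matplotlib 3.10.9, and counts and tests were checked on simulated data.

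Alternatives were windows of 100 and 500 bp, any overlap, the stronger 0.5 of a list, each replicate alone, and each gene as a unit. Genes named were the 10 strongest loci, the 2 strongest of each autosome, the strongest of each amino acid, those next to the IDR limit, those with the largest gap in rank, the strongest pairs, and copies in families of 8 or more. Members and lists were chosen with earlier results of these data known. The GA repeat was taken up after seeing the data.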

Additional observations from a re-analysis of the deposited data

How the results depend on the processing

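The number of autosomal tRNA genes with an IDR summit was 41 with a window of 100 bp, 44 with 500 bp or with any overlap, and 41 or 42 from the strongest 479 regions of replicate 1 or replicate 2 alone. It was 16 with the stronger 0.5 of the IDR list, a list shorter by construction. The number with a pooled summit ran from 150 to 195. The median distance from the 5′ end to the summit was 29 bp in replicate 1 alone and 22.5 bp in replicate 2 alone, 6 bp at genes with an IDR summit and 25 bp with a window of 500 bp; the cause was not tested. The lower share of IDR summits on the autosomes than on X kept its direction and its side of the threshold in 6 of 6 alternatives (Fisher's exact test, adjusted p from 3.21e-05 to 0.00714), and the other 6 comparisons passed in none. The comparison of members with and without the GA repeat was chosen after seeing the data. Its log2 odds ratio for the upstream stretch was 2.21 to 2.60 over the alternatives. Those alternatives reuse the same 2 replicates, so the shared direction is no independent support. No paired analysis was possible because there was 1 group. Read depth and the treatment of reads shared by identical genes were unknown, which limits what the absence of a region at a tRNA gene means.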
